A study of Mus musculus with 9 samples.

Results

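Single-block circRNAs are the circular RNAs of the embryonic mouse cortex whose counted length fills the whole genomic interval between their 2 ends, so that no intron was left out between them. They were chosen by position and length alone: a counted length of at least 250 and below 2000 bases that was at least as long as the distance from start to end, without the entries of a very abundant cluster on chromosome 17. The rule found 472 of the 5281 circRNAs in the table, which is 11.2% of the 4230 circRNAs of that length range outside the cluster. The other 3758 circRNAs of the same length range, whose counted length is shorter than their genomic interval, served for comparison.

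CircRNAs arise when a downstream splice donor is joined to an upstream splice acceptor, an event called backsplicing, which leaves a closed molecule without free ends. RNase R, an exonuclease that digests linear RNA from its 3′ end, spares such molecules. Most circRNAs hold several exons, whereas others are made of 1 exon only, and long introns on both sides of an exon are a known feature of exons that circularize. CircRNAs are abundant in the brain, where many of them derive from genes of neuronal development.

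The study sorted 3 cell types from the lateral cortex of C57BL/6 mouse embryos at embryonic day 14.5, taken from pregnant mice double heterozygous for a Btg2-RFP and a Tubb3-GFP reporter. Proliferative progenitors (PP) carried neither RFP nor GFP, differentiative progenitors (DP) carried RFP without GFP, and newborn neurons (N) carried GFP, so that each population was defined by reporter signal and may hold any cell with that signal. Total RNA of 3 replicates per cell type was treated with RNase R and sequenced as strand-specific libraries without mRNA enrichment. Each count is the number of reads on the bases of a circRNA and is not limited to its backsplice junction, and in these bulk samples fewer cells of a type and less RNA per cell cannot be told apart.

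Total counts ranged from 2962787 to 8015311 per library, of which 83572 to 287983 lay outside the very abundant cluster and an equally abundant entry within Cdk8. The 472 single-block circRNAs took 11250 to 33922 counts per library, and 3 counts, the floor used here for a value of 0, corresponded to 0.34 to 1.39 CPM (counts relative to the scaled size of the library). PP replicate 3 and N replicate 1 had the fewest counts outside the very abundant entries and stood apart from the other libraries of their cell types. They also held the highest CPM of their cell type for 229 and 257 of the 472 single-block circRNAs, respectively, so values without both are given where they gain or lose a call or differ most. Of the 29 differences of named circRNAs that were not called with all libraries, 10 were called without both. The summed level of 22 circRNAs from 5 neuronal marker genes was 29.8 to 37.2 CPM in PP, 89.7 to 125 CPM in DP and 440 to 472 CPM in N. Mean levels of Myt1l, Dcc, Bcl11b and Mtap2 rose at both steps, whereas Rims2 stayed level with 9.27, 9.93 and 9.81 CPM in PP, DP and N. The summed level of 8 circRNAs from the progenitor markers Fgfr2 and Ptprz1 was 162 to 261 CPM in PP and 51.4 to 77.8 CPM in the other 6 libraries. These 2 genes went apart after DP, with means of 118, 33.2 and 12.4 CPM in PP, DP and N for Fgfr2 and 82.0, 27.5 and 51.6 CPM for Ptprz1. No circRNA derived from Pax6, Sox2, Hes1, Vim, Nes, Tubb3 or Dcx, so these defining markers could not be read in this table. The same holds for the markers looked up for oligodendrocyte precursors, interneurons, microglia, endothelium, meninges and blood.

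All 472 single-block circRNAs were flanked by the dinucleotides AG before their first base and GT after their last base, the marks of a splice acceptor and a splice donor. The same held for 5278 of all 5281 circRNAs in the table, so it does not set the single-block circRNAs apart. Set against the gene annotation of the same genome build (mm9), 261 of them were exactly 1 annotated exon. A further 138 ran from the start of 1 annotated exon to the end of a later one, with the annotated introns between them included in the counted length. This class is called exon-intron-exon below, and the table does not say whether a given intron is part of the circle. By the study's methods, exons and introns were first counted apart, and an intron stayed in the list only above a level of expression. The study set that level from introns that it predicted but could not detect in cloned circRNAs. Introns were left out of its later analyses. Counts and RPKM of this class therefore cover exons and introns together, and its level is not independent of how introns were kept. Of the remaining circRNAs, 48 lay inside an intron, 7 had other ends within a gene and 18 lay outside genes on their own strand, 6 of them antisense to a gene and 12 intergenic. The 454 circRNAs within a gene on its strand came from 418 host genes, of which 32 gave 2 or more and 4 (Fxr2, Ttc28, Ezh2 and Spata13) gave 3.

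The backsplice junction is the stretch that tells a circle from its linear transcript, and it is shown here for 6 whole exons whose levels differed between cell types or that are known to circularize. The lower-case part is the last 30 bases of the exon and the capitals are its first 30 bases, read 5′ to 3′ on the strand of the gene from the mm9 genome. All 6 lie in coding sequence.
Bcl11b circ_001255, exon 2 of 4, chr12:109227675-109228040, minus strand: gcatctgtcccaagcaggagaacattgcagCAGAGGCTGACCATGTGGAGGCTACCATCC
Prdm16 circ_004514, exon 2 of 17, chr4:153902691-153903040, minus strand: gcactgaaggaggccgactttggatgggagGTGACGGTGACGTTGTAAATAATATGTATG
Dtx1 circ_004824, exon 3 of 10, chr5:121144419-121145121, minus strand: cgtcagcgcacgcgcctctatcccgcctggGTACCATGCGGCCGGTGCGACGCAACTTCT
Klf7 circ_000352, exon 2 of 4, chr1:64125281-64125908, minus strand: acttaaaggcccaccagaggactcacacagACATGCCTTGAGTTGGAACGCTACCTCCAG
Ncam1 circ_006626, exon 17 of 18, chr9:49314958-49315758, minus strand: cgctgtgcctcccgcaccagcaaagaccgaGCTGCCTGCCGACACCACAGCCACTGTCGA
Cdyl circ_001603, exon 5 of 10, chr13:35907778-35908444, plus strand: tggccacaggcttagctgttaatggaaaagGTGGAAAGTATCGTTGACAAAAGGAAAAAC

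The same junction is shown for 4 exon-intron-exon circRNAs, which came out strongly different between cell types, and for 2 circRNAs outside the genes of their strand. In the first 4, the lower-case bases end an exon and the capitals begin an earlier exon of the same transcript.
Cntn2 circ_000064, from exon 8 of 23, chr1:134421884-134423040, minus strand: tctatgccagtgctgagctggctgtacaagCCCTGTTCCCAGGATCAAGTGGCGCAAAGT
Kif21b circ_000078, from exon 2 of 35, chr1:138041176-138041889, plus strand: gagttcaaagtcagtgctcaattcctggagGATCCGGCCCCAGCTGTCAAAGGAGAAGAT
Notch1 circ_003686, from exon 3 of 34, chr2:26339788-26340969, minus strand: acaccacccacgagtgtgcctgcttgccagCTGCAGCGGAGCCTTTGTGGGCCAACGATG
Cdca3 circ_005327, from exon 3 of 6, chr6:124781380-124782687, plus strand: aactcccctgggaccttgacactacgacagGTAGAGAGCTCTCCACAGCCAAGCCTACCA
Intergenic circ_001311, 4201 bases from Sox11, chr12:28020863-28021361, minus strand: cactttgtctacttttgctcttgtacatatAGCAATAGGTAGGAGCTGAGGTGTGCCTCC
Antisense to Copg2 circ_005409, chr6:30754520-30755115, plus strand: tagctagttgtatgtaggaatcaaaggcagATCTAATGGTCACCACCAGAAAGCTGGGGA

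Of the 179 annotated introns counted inside exon-intron-exon circRNAs, 175 had a GT start and an AG end. They had a median of 193 bases, against 2012 bases for the introns within the other circRNAs. The rule itself keeps them short, because they are part of a counted length below 2000 bases. Introns skipped by the other circRNAs have no such limit. The boundaries of the single intron counted with the Kif21b and Notch1 circRNAs are shown here, with 20 exon bases in capitals and 20 intron bases in lower case on each side. The Kif21b intron is 308 bases long with a GC content of 53.2%, and the Notch1 intron 580 bases with 48.3%.
Kif21b intron start, intron chr1:138041399-138041706: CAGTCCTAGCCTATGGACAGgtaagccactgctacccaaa
Kif21b intron end, same intron: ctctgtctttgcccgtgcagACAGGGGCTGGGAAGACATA
Notch1 intron start, intron chr2:26340127-26340706: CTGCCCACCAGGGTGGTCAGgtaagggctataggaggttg
Notch1 intron end, same intron: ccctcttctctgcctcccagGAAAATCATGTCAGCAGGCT

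Whole exons that formed single-block circRNAs lay early in their transcripts and between long introns. Of the 261, 42.9% were exon 2 of their transcript and 30.3% held the start codon, against 28.1% and 13.2% of the other circRNAs of the same length range, which were counted by their first exon and by all their exons. Of all 11132 annotated internal exons of the same length, which are 6.76% of the 164616 internal exons, 24.6% were exon 2 and 15.9% held a start codon. The upstream intron of the whole exons had a median of 14207 bases and the downstream intron 13336 bases. The medians were 7491 and 5527.5 bases for the other circRNAs and 1672 and 1490 bases for the annotated exons of that length range. These annotated exons came from all protein-coding genes, without a choice by expression. Both introns were at least 10 kb long for 45.6% of the whole exons, 22.1% of the other circRNAs and 4.45% of the annotated exons.

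The longest introns belonged to Schip1, whose circularized exon 2 lay 429566 bases after exon 1 and 100892 bases before exon 3, and to Dcc, which encodes the netrin receptor and whose exon 2 lay between introns of 395281 and 128466 bases. Exon 3 of Etl4 lay between introns of 189849 and 131655 bases. It is short enough to be shown whole, with its 284 bases in capitals and the flanking AG and GT of the introns in lower case.
Etl4 circ_003630, exon 3 of 22, chr2:20451586-20451869, plus strand: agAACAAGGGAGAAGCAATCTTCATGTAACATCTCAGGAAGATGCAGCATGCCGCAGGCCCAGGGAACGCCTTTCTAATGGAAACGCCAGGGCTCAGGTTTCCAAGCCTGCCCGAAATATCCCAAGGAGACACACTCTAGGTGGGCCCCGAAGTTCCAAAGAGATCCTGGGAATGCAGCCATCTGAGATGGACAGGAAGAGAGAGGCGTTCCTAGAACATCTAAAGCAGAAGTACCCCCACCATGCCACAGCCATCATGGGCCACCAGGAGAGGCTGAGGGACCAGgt

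Exon-intron-exon circRNAs lay between shorter introns than the whole exons. Their flanking introns had medians of 1387 and 1149.5 bases, near the 1672 and 1490 bases of the annotated exons. Both introns were at least 10 kb long for 5.07% of them and 4.45% of the annotated exons. Both were under 1 kb for 34.1% of them, 2.32% of the whole exons, 2.45% of the other circRNAs and 20.9% of the annotated internal exons of that length range. Only 15.2% of the exon-intron-exon circRNAs began at exon 2. The rule admits only short counted introns in this class, and its part in the length of the flanking introns was not tested. In 106 of the 138 there were 2 exons, in 25 there were 3, in 5 there were 4 and in 2 there were 5. The counted introns summed to a median of 289 bases per circRNA and made up 56.3% of the bases of the class. An exon of another annotated transcript covered all of these introns for 5 of the 138 circRNAs, and a transcript annotated as retained intron was found for 8. Purely coding sequence made up the exons of 89.1% of this class and 61.7% of the whole exons, and the median GC content of the exonic bases was 54.3% and 51.3%, against 48.1% in the other circRNAs and 53.7% in the annotated exons of that length.

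**Figure D1:**
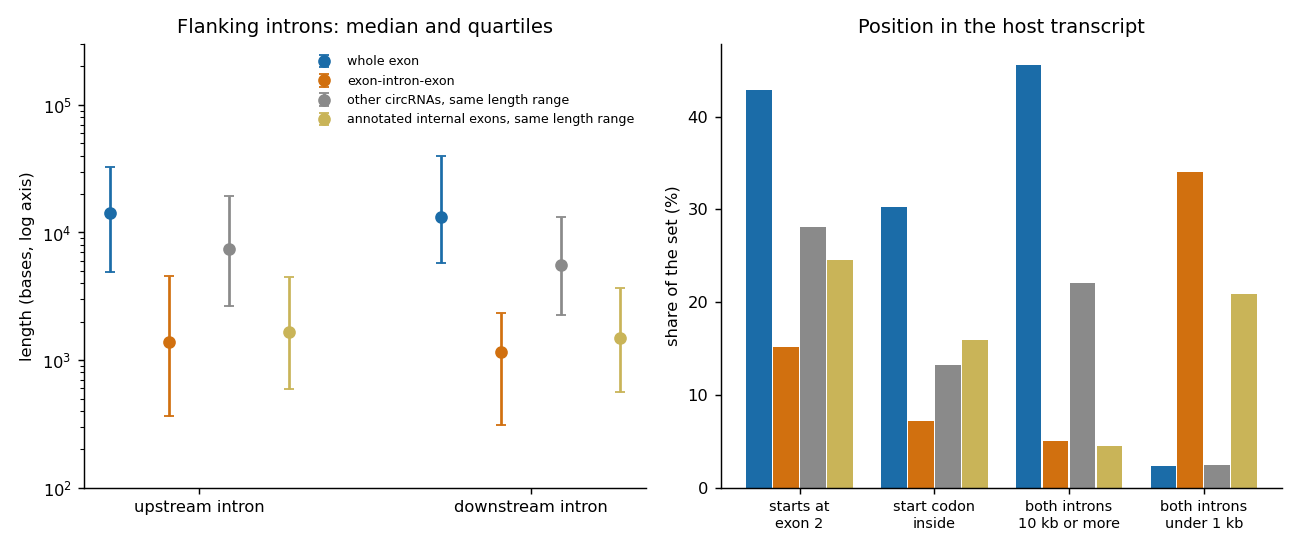
Left, length of the introns upstream and downstream of the circularized segment in bases on a log axis (points, medians; bars, quartiles) for whole exons, exon-intron-exon circRNAs, the other circRNAs of the same length range and annotated internal exons of that length range (1 transcript per protein-coding gene). Right, share of each set in percent that starts at exon 2, holds a start codon, or has both introns at or above 10 kb or under 1 kb. The whole exons lie between introns with medians of 14207 and 13336 bases, and the exon-intron-exon circRNAs between introns with medians of 1387 and 1149.5 bases.

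Complementary stretches in the flanks, which can pair and bring both ends of an exon together, were scarce in every class. Up to 1000 intron bases on each side were searched, and fewer where the intron was shorter. A run of at least 20 upstream bases that matched the reverse complement of the downstream bases was found for 5.02% of the whole exons. It was found for 3.62% of the exon-intron-exon circRNAs, 5.04% of the other circRNAs and 1.58% of the annotated exons. In the same order, both introns were under 1 kb for 2.32%, 34.1%, 2.45% and 20.9%. The shares with a run therefore do not come from flanks of like length. The donor sequence GTAAGT, searched on the strand of the gene at the first 6 intron bases only, followed 18% of the whole exons, 12.3% of the exon-intron-exon circRNAs, 17.2% of the other circRNAs and 12.7% of the annotated exons. Among those purely in coding sequence, the exon length was a multiple of 3 for 33.5% of the whole exons and 38.8% of the other circRNAs. It was a multiple of 3 for 44.7% of the exon-intron-exon circRNAs and 47.5% of the annotated exons.

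Paralogous genes gave the same exon. All 4 genes of the nuclear factor I family, transcription factors of neural and glial development, were among the hosts, each with its exon 2 of 532 bases, and these exons were identical at 75.8% to 82.0% of their positions. Exon 3 of the ephrin receptor genes Epha4 and Epha5 had 664 bases each with 69.9% identity, and that of Epha3 had 661 bases. The zinc finger genes Bcl11a and Bcl11b gave exon 2 with 330 and 366 bases. The longest stretch of identical positions between any of the compared exons of equal length was 32 bases, between Nfic and Nfix, which is shorter than the 150-base reads.

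Of the 472 single-block circRNAs, 335 (71.0%) overlapped the genomic interval of no other circRNA on their strand, against 46.9% of the other circRNAs of the length range. Intervals include skipped introns, with a median of 549 bases for single-block circRNAs and 7967.5 bases for the others. Longer intervals can overlap more entries, so these shares are not compared at like length. For those that overlapped, reads on shared bases had been counted for more than 1 entry: in 11 of 11 nested pairs of single-block circRNAs the outer one had at least as many counts as the inner one in every library, and 2 entries in Tbc1d14 had identical coordinates and counts. Values of overlapping circRNAs are therefore not independent.

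Levels per length were given as CPM per kilobase of counted length (RPKM) and compared within libraries. The median of all single-block circRNAs was higher than that of the other circRNAs in 9 of 9 libraries, by 0.13 to 0.58 on the log2(RPKM + 1) scale. The exon-intron-exon class was higher by 0.75 to 1.64, whereas whole exons were higher by 0.0065 to 0.40. Introns stayed in the list only above a level of expression, so the higher level of the exon-intron-exon class is not independent of that choice. The same holds for its part in the median of all single-block circRNAs. The lowest mean RPKM was 3.30 in this class and 0.42 among the other circRNAs. Circles inside an intron and outside genes were lower in every library. The median of the mean RPKM was 13.9 for exon-intron-exon circRNAs, 7.71 for whole exons, 3.51 outside genes, 3.17 inside introns and 6.27 for the other circRNAs. The exon-intron-exon median was highest in N replicate 1 (17.4 RPKM) and PP replicate 3 (15.4 RPKM), and it was 11 to 13.6 RPKM in the other 7 libraries. The part of these 2 libraries in the level of this class was not tested. For all single-block circRNAs together, leaving out 1 library at a time kept the median difference over libraries between 0.26 and 0.30.

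**Figure D2:**
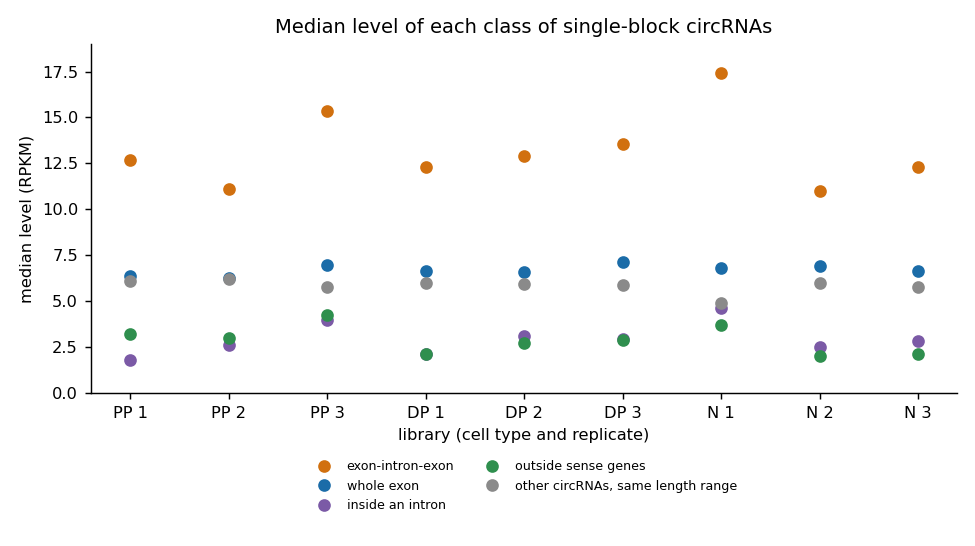
Median level in RPKM of exon-intron-exon, whole-exon, intronic and non-genic single-block circRNAs and of the other circRNAs of the same length range, in each of the 9 libraries (1 point per class and library). The exon-intron-exon circRNAs sit at 11 to 17.4 RPKM, above every other class in each library, and the 2 highest points are N replicate 1 and PP replicate 3. The level of this class is not independent of how introns were kept.

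Together, single-block circRNAs took 11.6% ± 1.59 (SD, n = 3) of the counts outside the very abundant entries in PP, 12% ± 0.184 in DP and 12% ± 0.725 in N. These shares did not differ beyond the spread between replicates (exact permutation test, two-sided, p = 0.9 for DP against PP, p = 1 for N against DP and p = 0.7 for N against PP, each 1 after adjustment over the 3 pairs, where 3 against 3 libraries cannot go below 0.1). Without PP replicate 3 the share in PP was 10.7%.

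The highest level was that of the circRNA of Hnrnpa2b1, an RNA-binding splicing regulator, which had 166, 134 and 435 CPM in PP, 274, 264 and 260 CPM in DP and 549, 173 and 237 CPM in N, with a mean of 686 RPKM over cell types. PP replicate 3 and N replicate 1 were the highest libraries of their cell types, and the cell types overlapped. Its difference between N and PP was not called with all libraries or without both (edgeR adjusted p = 0.0717 without both).

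The whole exon with the highest level was exon 9 of Eef2, the elongation factor that moves the ribosome along the mRNA, with 244 RPKM, 47.7 to 59.96 CPM in PP, 64.8 to 69.8 CPM in DP and 54.5 to 86.6 CPM in N. It is an exception among whole exons, since it lay between introns of 75 and 153 bases. Exon 2 of Nfix followed with 164 RPKM, exon 2 of Bcl11b with 88.8 RPKM and exon 2 of Nfib with 88.6 RPKM. The intergenic circ_001311 reached 86.7 RPKM. Dpysl5, a gene of axon growth, Ctnnb1, which encodes beta-catenin, and Hnrnpu, a nuclear RNA-binding protein, were also among the 10 highest, with 83.4, 79.0 and 76.5 RPKM. Several of these were called between N and PP only without PP replicate 3 and N replicate 1. The log2FC of Nfix was 0.36 with all libraries (edgeR adjusted p = 0.616) and 1.01 without both (adjusted p = 0.000131). Eef2 was then called with log2FC 0.60, Ctnnb1 with -0.95 and Hnrnpu with -0.63 (adjusted p = 0.0130, 0.000102 and 0.0103).

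To ask how these circles change along the lineage from PP through DP to N, counts of all circRNAs were fitted together and the rows of single-block circRNAs read out. Of the 472, 408 passed the filter on low counts, among them all 138 exon-intron-exon circRNAs, 227 of the 261 whole exons, 28 of the 48 inside introns, 3 of the 7 with other ends and 12 of the 18 outside genes. A circRNA was called at an adjusted p under 0.05 (edgeR quasi-likelihood test, Benjamini-Hochberg over 4406 circRNAs). Between DP and PP 9 were called, 7 higher and 2 lower in DP, which is 2.21% of those tested. Of all circRNAs tested, 1.86% were called, 1.48% higher and 0.386% lower. Between N and DP 92 were called, 43 higher and 49 lower in N, which is 22.5% of those tested, while 18.8% of all circRNAs were called, 9.03% higher and 9.80% lower. Between N and PP 123 were called, 60 higher and 63 lower, which is 30.1% of those tested, while 28.0% of all circRNAs were called, 13.6% higher and 14.4% lower. The shares of single-block circRNAs called were thus near those of all circRNAs. Their median log2FC was -0.03, 0.0006 and -0.02 in the 3 comparisons, beside -0.06, -0.02 and -0.10 for all circRNAs tested.

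These counts moved with the scaling and with single libraries. With total counts as library size, which shifts the median of all circRNAs by about -0.37 in both comparisons with N, the calls were 9 higher and 36 lower between N and DP and 26 higher and 49 lower between N and PP. Without PP replicate 3 and N replicate 1, 86, 174 and 210 of 431 tested were called in DP against PP, N against DP and N against PP. For DP against PP, 25 were called without PP replicate 3 alone, 26 without N replicate 1, 5 without DP replicate 1 and 5 without DP replicate 3.

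By class, 73 of 227 whole exons and 35 of 138 exon-intron-exon circRNAs were called between N and PP (32.2% and 25.4%, where 28.0% of all circRNAs were called), 38 and 15 of them higher and 35 and 20 lower in N. Of the 12 tested outside genes, 4 were higher and 3 lower, and of the 28 inside introns, 2 were higher and 4 lower, which is 58.3% and 21.4% called beside the same 28.0%.

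**Figure D3:**
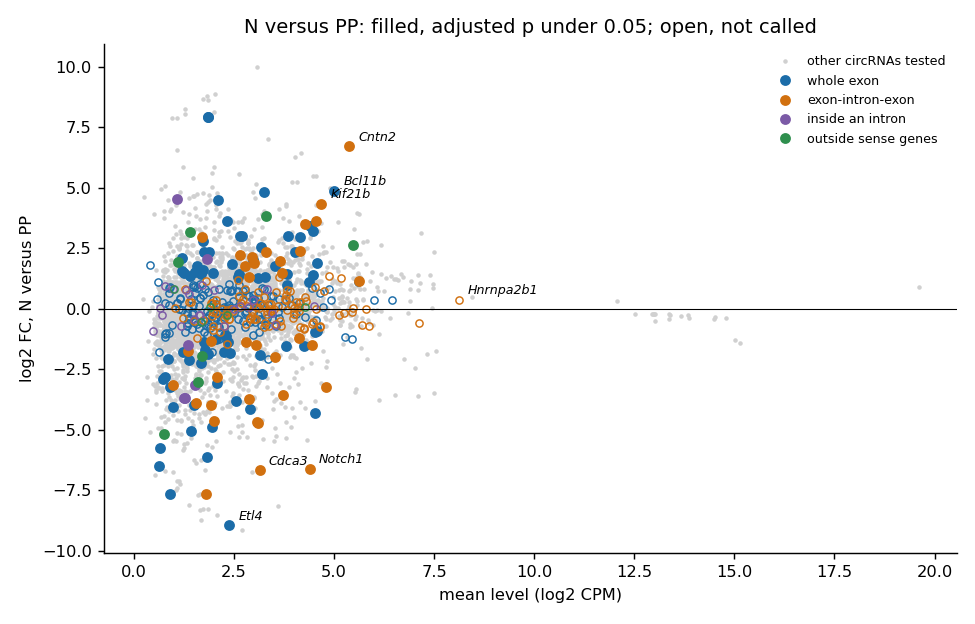
Log2 FC between N and PP against mean level in log2 CPM for all circRNAs tested (grey) and for single-block circRNAs by class (colours; filled, adjusted p under 0.05; open, not called; the 3 tested with other ends in a gene are not drawn). The calls lie on both sides of 0, with 60 higher and 63 lower in N, and the circle with the highest level per length, that of Hnrnpa2b1, is an open point.

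Among circRNAs above the median level whose cell types did not overlap, the largest rise between PP and N was that of Cntn2, which encodes contactin 2, an adhesion molecule of axons. Its circRNA (exons 8 onwards, junction above) had 1.04, 1.13 and 0.930 CPM in PP, 8.15, 6.78 and 14 CPM in DP and 125, 93.9 and 123 CPM in N. The 3 cell types did not overlap, with log2FC 3.17 (SE 0.43, adjusted p = 0.0013) between DP and PP and 3.56 (SE 0.35, adjusted p = 2.65e-05) between N and DP. The circRNA of exon 2 of Bcl11b, a zinc finger factor of subcortical projection neurons, had 1.30, 1.13 and 7.90 CPM in PP, 7.93, 6.91 and 10.6 CPM in DP and 146, 44.4 and 67.3 CPM in N. N lay above both progenitor types in every library, by log2FC 3.33 (SE 0.58, adjusted p = 0.00104) against DP, whereas PP replicate 3 reached the range of DP.

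Kif21b, a kinesin motor of neurons, rose earlier. Its circRNA had 1.82, 2.10 and 2.79 CPM in PP, 28.3, 23.6 and 34.0 CPM in DP and 58.5, 33.5 and 42.6 CPM in N. DP exceeded PP by log2FC 3.71 (SE 0.38, adjusted p = 0.000497), while N and DP overlapped by 1 library and their difference did not pass the test (log2FC 0.64, SE 0.31, adjusted p = 0.188). Exon 2 of Dcc had 1.04, 0.485 and 0 CPM in PP, 5.55, 2.71 and 8.45 CPM in DP and 5.32, 5.93 and 10.5 CPM in N, again with all DP libraries above PP (log2FC 3.24, SE 0.64, adjusted p = 0.0177). Apba2, an adaptor of the amyloid precursor protein, was higher in DP than in PP as well (11.4 to 14 against 3.64 to 6.04 CPM, adjusted p = 0.0331) and rose further in N to 27.8 to 40.02 CPM.

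Other whole exons were lower in both progenitor types than in N. Of the steps from PP through DP to N, only the last was called. The penultimate exon of Ncam1, a neural cell adhesion molecule, had 1.56, 1.94 and 1.86 CPM in PP, 1.93, 1.85 and 2.11 CPM in DP and 21.3, 12.9 and 11.3 CPM in N (N against DP log2FC 2.9, SE 0.33, adjusted p = 7.12e-05). Exon 3 of Dtx1, a ubiquitin ligase that acts on Notch receptors, had 1.04, 0.647 and 0.930 CPM in PP, 2.83, 3.21 and 4.47 CPM in DP and 39.4, 13.6 and 21.1 CPM in N. Exon 2 of Klf7, a zinc finger factor of axon growth, had 1.82, 1.62 and 1.86 CPM in PP, 2.60, 2.59 and 4.10 CPM in DP and 27.9, 6.98 and 10.5 CPM in N. For Dtx1 and Klf7 all DP libraries lay above all PP libraries, but that step was not called (log2FC 2.04 and 0.82, edgeR adjusted p = 0.0788 and 0.647). In Ncam1, Dtx1 and Klf7, as for Bcl11b and Kif21b, N replicate 1 was the highest library. Without PP replicate 3 and N replicate 1 the log2FC between N and DP was 2.71 for Bcl11b, 2.29 for Dtx1 (2.77 with all libraries) and 1.47 for Klf7 (2.19 with all libraries). Each of the 34 called differences of circRNAs named here was also called without PP replicate 3 and N replicate 1.

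By the same selection, the lowest log2FC between N and PP was that of exon 3 of Etl4, whose sequence is given above. It had 10.6, 13.7 and 5.11 CPM in PP, 4.87, 2.96 and 6.21 CPM in DP and no count in any N library. Set against a floor of 3 counts over the N libraries together, it was at least 55.6-fold lower in N than in PP and at least 26.5-fold lower than in DP (adjusted p = 2.64e-05 and 0.000185). Because N had no count, these bounds do not show that it fell further than Notch1 or Cdca3. Notch1, the receptor that keeps progenitors undifferentiated, gave a circRNA with 37.9, 32.2 and 53.9 CPM in PP, 16.5, 25.2 and 23.4 CPM in DP and 0, 0.465 and 0.490 CPM in N. All PP libraries lay above all DP libraries, but that step did not pass the test (log2FC -0.92, SE 0.33, adjusted p = 0.256), whereas N fell below DP with log2FC -5.68 (SE 0.49, adjusted p = 1.3e-05). Cdca3, a gene of mitotic entry, gave 11.9, 13.9 and 16.7 CPM in PP, 10.4, 12.7 and 10.7 CPM in DP and 0, 0.116 and 0.163 CPM in N (N against DP adjusted p = 8.58e-06). Its circRNA overlapped between the progenitor types and was nearly without counts in N.

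Spata13, an exchange factor of small GTPases, gave 3 single-block circRNAs, of which circ_001920 had 14.8, 12.1 and 20.9 CPM in PP, 8.83, 10.6 and 7.95 CPM in DP and 0.443, 0.814 and 0.327 CPM in N. Exon 2 of Prdm16, a zinc finger regulator of radial glia, had 12.7, 12.1 and 19.985 CPM in PP, 5.32, 6.41 and 7.70 CPM in DP and 1.77, 0.582 and 0.653 CPM in N. The 3 cell types did not overlap in either, and N was below PP with log2FC -4.72 (SE 0.44, adjusted p = 5.82e-06) and -4.15 (SE 0.45, adjusted p = 1.61e-05). Exon 2 of D8Ertd82e had 4.65 to 7.79 CPM in PP, 7.08 to 11.5 CPM in DP and 0.163 to 0.886 CPM in N.

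**Figure D4:**
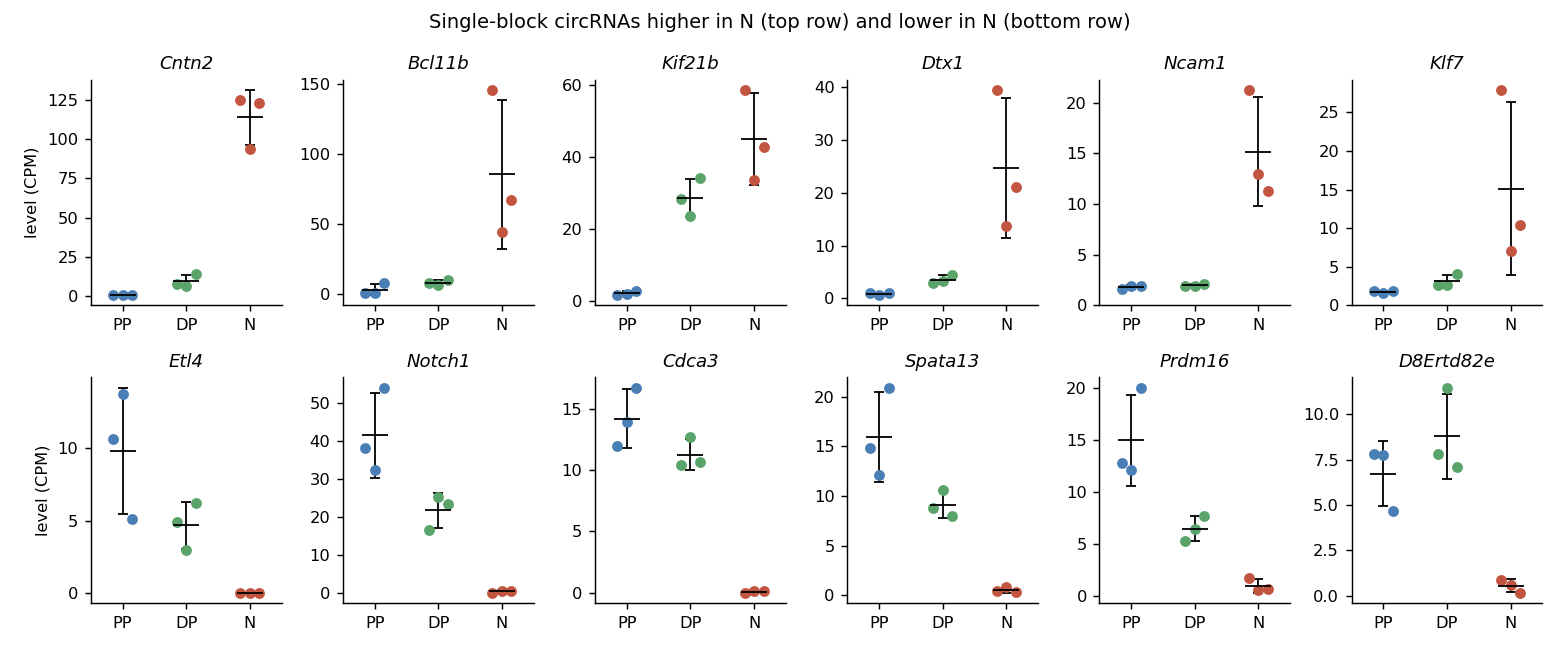
Level in CPM of 12 single-block circRNAs in PP, DP and N (points, the 3 libraries of each cell type in replicate order; horizontal lines and bars, mean ± SD). The top row shows Cntn2, Bcl11b, Kif21b, Dtx1, Ncam1 and Klf7, which were higher in N, and the bottom row Etl4, Notch1, Cdca3, Spata13, Prdm16 and D8Ertd82e, which were lower in N, where Etl4 had no count.

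Only 2 single-block circRNAs were called lower in DP than in PP. They were those of Fgfr2, a receptor of progenitors (9.35, 11.3 and 33.5 CPM in PP, 2.94, 4.81 and 3.85 CPM in DP, adjusted p = 0.0299), and of Schip1 (6.23, 5.01 and 7.90 CPM in PP, 2.38, 1.73 and 1.99 CPM in DP, adjusted p = 0.0274). The exon of Schip1 returned to 4.88, 8.03 and 7.35 CPM in N (N against DP adjusted p = 0.00153), which overlapped PP. Both calls between DP and PP were lost with total counts as library size.

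Called single-block circRNAs moved with the other circles of their gene. Between N and PP, 48 called single-block circRNAs had at least 1 other tested circRNA from the same gene that shared no base with them, giving 104 pairs. In 102 of these the log2FC had the same sign, and in 83 the other circRNA was called in the same direction, with none called in the opposite direction. Both exceptions were pairs of Ttc28, in which 2 single-block circRNAs rose while another circle of the gene was not called. Between N and DP, 67 of 69 pairs had the same sign, and between DP and PP 6 of 6. Among 316 pairs whose single-block circRNA was not called between N and PP, 228 had the same sign and the other circRNA was called in 54. Of all circRNAs tested, 28.0% were called between N and PP. Several pairs can come from 1 gene, as for Etl4 and Dcc, so the pairs are not independent.

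**Figure D5:**
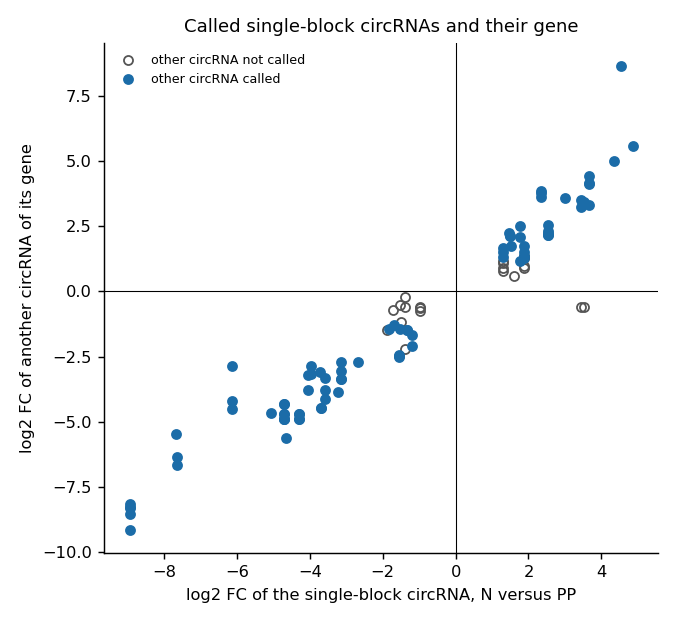
Log2 FC between N and PP of the 48 called single-block circRNAs (horizontal) and of the other circRNAs of the same gene that share no base with them (vertical), 104 pairs in all (filled, the other circRNA called at adjusted p under 0.05; open, not called). The points lie in the lower left and upper right areas except for 2 pairs of Ttc28.

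5 genes that are widely known for a circle of 1 exon were among the hosts: Hipk3 and Hipk2, which encode nuclear kinases, Foxo3, a forkhead factor, Cdyl, a chromatin protein, and Zfp609, a zinc finger protein. All 5 circRNAs were whole exons, with 7.71 to 33.5 RPKM. None was called in the 3 comparisons by edgeR or by DESeq2, and 2 of the 5 had an unadjusted edgeR p under 0.05 between N and PP. The Cdyl circle had 4.93, 3.88 and 52.1 CPM in PP, 8.15, 7.40 and 6.83 CPM in DP and 9.31, 2.33 and 3.59 CPM in N, and the Hipk3 circle 5.19, 3.72 and 30.2 CPM in PP against 4.88 to 10.1 CPM in the other 6 libraries. PP replicate 3 was the highest of all 9 libraries for both. Without PP replicate 3 and N replicate 1, Hipk3 and Zfp609 were called between N and PP, Cdyl and Zfp609 between DP and PP, and Cdyl and Hipk2 between N and DP.

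Hosts were grouped by the function of the gene, and the calls of each group between N and PP stand beside 28.0% of all circRNAs called, 13.6% higher and 14.4% lower. Transcription factors were the largest group, with 55 single-block circRNAs from 49 genes, 38 of them whole exons and 7 exon-intron-exon. They were 11.7% of single-block circRNAs and 5.35% of the other circRNAs of the length range. The symbols matched with a wildcard include Sox2ot and Nr2c2ap, which are not transcription factors. Of 47 tested between N and PP, 6 were higher and 8 lower, a share near that of all circRNAs, with a median log2FC of -0.05. Bcl11a, the paralogue of Bcl11b, rose from 4.65 to 6.75 CPM in PP to 9.38 to 15.4 CPM in DP and 23.5 to 41.2 CPM in N (N against PP log2FC 2.34, SE 0.35, adjusted p = 0.000206). Nfib had 8.83 to 44.3 CPM in PP, 40.3 to 50.1 CPM in DP and 30.6 to 85.6 CPM in N and was not called (N against PP log2FC 1.13, adjusted p = 0.108). Without PP replicate 3 and N replicate 1, which were its lowest libraries in PP and N, it was called (log2FC 1.06, adjusted p = 2.75e-05).

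Genes of RNA-binding proteins gave 29 single-block circRNAs, and here the classes were the other way round, with 19 exon-intron-exon and 9 whole exons. Their median was 18 RPKM, and 2 of 29 were higher and 2 lower in N than in PP, beside 13.6% and 14.4% of all circRNAs. Caprin1, a protein of RNA granules, had 7.90 to 20.5 CPM in PP, 18.6 to 22.5 CPM in DP and 12 to 27.2 CPM in N. Guidance and adhesion receptors gave 28, which were 5.93% of single-block circRNAs and 2.55% of the other circRNAs. Of their 24 tested, 8 were higher and 6 lower in N than in PP, beside 13.6% and 14.4% of all circRNAs, with a median log2FC of 0.51. Besides Cntn2 and Dcc, exon 3 of Epha4 had 19.985 to 29.9 CPM in PP, 22.9 to 32.0 CPM in DP and 10.5 to 16.8 CPM in N, a fall with log2FC -0.98 (SE 0.31, adjusted p = 0.0313) against PP. Exon 3 of its paralogue Epha5 had 7.90 to 16.6 CPM in PP and 12.9 to 22.6 CPM in N and was not called.

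Cytoskeletal genes gave 24 single-block circRNAs, of which 4 were higher and 8 lower in N than in PP among 21 tested, again beside 13.6% and 14.4% of all circRNAs, as for the groups that follow. The circRNA of Mtap2, a microtubule-associated protein of dendrites, rose from 1.86 to 4.37 CPM in PP to 21.3 to 33.0 CPM in N (log2FC 2.99, SE 0.36, adjusted p = 3.41e-05). Chromatin regulators gave 33, of which 2 were higher and 3 lower among 31 tested. Dnmt1, the maintenance DNA methyltransferase, had 7.79 to 14.9 CPM in PP, 11.7 to 14.6 CPM in DP and 5.32 to 7.68 CPM in N. It was lower in N than in DP (log2FC -1.05, SE 0.31, adjusted p = 0.0306) and was not called between N and PP (adjusted p = 0.122). Kinases and phosphatases gave 30, including 1 circRNA of the kinase inhibitor Cdkn1b, and 2 were higher and 1 lower among 29 tested. Pip5k1c, a lipid kinase, rose from 2.34 to 4.65 CPM in PP to 12.6 to 17.3 CPM in N (adjusted p = 0.00101). The ubiquitin system gave 18, with Nedd4, a ubiquitin ligase, as the single one called among 14 tested, falling from 22.3 to 33.5 CPM in PP to 9.75 to 11.4 CPM in N (adjusted p = 0.00164).

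Outside genes, the intergenic circ_001311 had 15.3, 13.6 and 5.58 CPM in PP, 57.6, 37.1 and 43.5 CPM in DP and 12.4, 115 and 90.3 CPM in N. It was higher in N than in PP (log2FC 2.63, SE 0.61, adjusted p = 0.00482), although N replicate 1 lay below the highest PP library. The circRNA antisense to Copg2 had 2.08, 0.323 and 4.18 CPM in PP, 1.25, 1.6 and 1.99 CPM in DP and 35.5, 12.4 and 31.2 CPM in N, so that every N library lay above every progenitor library (N against DP log2FC 4.0, SE 0.56, adjusted p = 0.000201). The intergenic circ_004134, which is 284 bases long and lay 17072 bases from Rhbg, had 67.6 RPKM and 14.5 to 24.2 CPM in PP, 14.7 to 25.7 CPM in DP and 10.005 to 30.6 CPM in N, and the cell types overlapped. The intergenic circ_005838 and circ_000712 had 8.01 and 6.73 RPKM.

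At the lower limit of length, the members just inside were those of 5930416I19Rik and Epn1 with counted lengths of 250 and 251 bases and 8.19 and 57.4 RPKM. Just outside were those of Prim1 and Troap with 247 and 248 bases and 5.40 and 8.77 RPKM. At the upper limit, Tead2 and Fxr2 lay inside with 1995 and 1997 bases and 13.9 and 18.1 RPKM, and AI480526 and Zfyve9 outside with 2020 and 2025 bases and 11.1 and 3.46 RPKM.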

How the data were processed

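RNA sequencing of 9 libraries (PP, DP and N, 3 replicates each, grouped by the labels) was analysed from 1 table of counts. The authors aligned 150-base single-end reads to mm9 with gsnap, predicted backsplice junctions with find_circ, annotated them with Ensembl 67, counted reads per feature with featureCounts (Subread 1.6.0 in the submitters' processing notes) and deposited raw counts per circRNA, together with coordinates and counted length. Its options for overlapping features are not given in the sources used here. Whether libraries of the same number came from the same animals is not stated, so p-values measure the spread between these libraries.

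All circRNAs were fitted together with edgeR 4.0.16 (filterByExpr, TMM, quasi-likelihood test, Benjamini-Hochberg threshold 0.05, all 9 libraries) in R 4.3.3. CPM used the TMM-scaled library sizes, and RPKM is CPM per kilobase of counted length. For all 472 single-block circRNAs the counted length was the genomic span plus 1. Starts were raised by 1 to count from 1. Positions were read from GENCODE mouse release 1 (Ensembl 65, same build as mm9) and sequences from its genome. The fit was tested on simulated data for N against PP. Of 49 circRNAs changed 2-fold 8 were called, and of 49 changed 4-fold 37 were called. Among 4035 unchanged circRNAs 7 were called. Differences of about 2-fold can therefore go uncalled. Alternatives were DESeq2 1.42.0, other scalings, filters, member choices and omitted libraries. Depth per library is given in the report, and floors cover counting error only.

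Circles were named by rule: the 10 with the highest RPKM, up to 5 per comparison and direction with the largest log2FC among called, non-overlapping and above-median circRNAs, known single-exon hosts, the 5 highest outside genes, up to 4 per host list, and those at the length limits. 1 circRNA named by this rule is not reported here. The circRNAs and the host lists were chosen with earlier results of these data known.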

Additional observations from a re-analysis of the deposited data

How the results depend on the processing

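Called single-block circRNAs between DP and PP, N and DP, and N and PP numbered 9, 92 and 123. They numbered 5, 45 and 75 with total counts as library size, 2, 22 and 36 with at least 10 counts in every library, where 173 were tested, and 86, 174 and 210 without PP replicate 3 and N replicate 1. DESeq2 called 15 between DP and PP, and a fit of the libraries of that comparison alone called 14. Whole exons alone gave 57 between N and DP and 73 between N and PP, from 227 tested. Leaving out 1 library at a time gave 5 to 26, 66 to 130 and 105 to 178. Except where fewer circRNAs were tested, the cause of these shifts was not tested. With total counts the median log2FC was -0.36 between N and DP and -0.34 between N and PP. The summed share was 4.89%, 5.06% and 5.32% in PP, DP and N for whole exons alone, and 16.8%, 17.4% and 17.3% of the counts of the same length range. The higher median level of single-block circRNAs kept its direction over the pooled libraries in every alternative, but with at least 10 counts in every library the difference ranged from -0.06 to 0.36 between libraries.

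A replicate block in the fit gave 6, 80 and 113 calls. Deviations of libraries with the same number correlated between -0.24 (PP and N replicate 1) and 0.28 (PP and N replicate 2), and not every library correlated best with its own number, so the numbers were not taken as pairs.

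Of the 34 called differences of named circRNAs, none changed direction. Of them 27 stayed called with total counts, 30 with the block, and all with DESeq2. Among the 29 not called, 13 changed sign between N and PP under at least 1 alternative. With total counts Hnrnpa2b1 went to -0.038, Foxo3 to -0.077, Cdkn1b to -0.22, Trip12 to -0.20, circ_000712 to -0.23 (-0.0521 with DESeq2) and circ_004134 to -0.45. With at least 10 counts in every library circ_004134 went to -0.19 and Trip12 to -0.15. Without PP replicate 3 and N replicate 1, Hipk3 to 0.98, Ezh2 to 0.82, Whsc1 to 0.12, Huwe1 to 0.20, circ_004134 to -0.17 and Trip12 to -0.05. Leaving out 1 library at a time, the log2FC ranged from -0.24 to 1.09 for Hnrnpa2b1, -0.54 to 1.13 for Foxo3, -1.17 to 0.83 for Hipk3, -0.40 to 0.40 for circ_004134, -0.14 to 1.5 for circ_005838, -0.56 to 1.6 for circ_000712, -0.70 to 0.03 for Whsc1, -1.18 to 0.84 for Ezh2, -0.46 to 0.11 for Ptprf, -0.15 to 0.21 for Ppp6r1, -0.77 to 1.38 for Cdkn1b, -0.14 to 0.26 for Trip12 and -0.39 to 0.09 for Huwe1.

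The median count of a single-block circRNA was 10 to 36 per library, so values of the lower circRNAs rest on few counts.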
